A study of Mus musculus with 20 samples.

Results

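The peaks described here mark where pRb, the retinoblastoma tumour suppressor protein, was called on chromatin of wild-type (WT) mouse embryonic fibroblasts in 2 growth states, arrested and asynchronously proliferating. They are the peaks on chromosomes 1 to 19 of the 2 WT pRb peak lists, 401665 from arrested and 76548 from proliferating cells. Together these are 478213 of the 4480164 peaks in the 10 lists of the series. A peak was called kept if it shared at least 1 bp with a peak of the other list, and arrest-only or proliferation-only if it did not. Each state had 1 immunoprecipitated library. Differences between the states therefore cannot be set against a spread of replicates, and p-values are not given. The series also holds pRb lists of cells labelled SS, a genotype name that the labels do not spell out, and lists of Ezh2 in serum-deprived cells and of H3K27me3 in both genotypes, which served here as lists that took no part in defining the classes.

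Both libraries came from primary fibroblasts of strain C57BL/6 at embryonic stage E13.5, grown in 10% serum to passage 4. For the arrested library the labels name arrest by confluence as the growth condition, while the treatment text names 0.1% serum for 72 h. That text is the same for all samples, the proliferating ones included. Chromatin was cross-linked with EGS and formaldehyde. pRb was precipitated in both states with antibodies of which the labels list 5, without saying which was used where. Whether the 2 cultures came from the same embryos is not given in the sources used here. The lists hold positions and scores only, so the fibroblast label could not be set beside marker genes, and the depth of the libraries is unknown.

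pRb is best known as a brake on the cell cycle. In cells that are not dividing it is little phosphorylated and sits on E2F transcription factors, where it represses genes for DNA replication and division. When cells proliferate, cyclin-dependent kinases phosphorylate pRb and release much of it from E2F. pRb has also been described at repeated sequences together with Ezh2, the enzyme that writes the Polycomb mark H3K27me3, and the title of the series concerns the silencing of endogenous retroelements by a tumour suppressor. The comparison of arrested with proliferating WT cells asks where the called pRb positions of the 2 states coincide.

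Arrested cells had far more called pRb peaks than proliferating cells, but the peaks of both states were short, and few lay at the same place. The arrested list held 5.25 times as many autosomal peaks as the proliferating list and covered 6.72 times the length, 75.9 Mb against 11.3 Mb. This was 3.07% and 0.456% of the autosomal sequence up to the last peak of any list. The median length was 145 bp in the arrested list, with quartiles of 136 and 200 bp, and 148 bp in the proliferating list, with quartiles of 132 and 160 bp. The shortest length differed between the lists: 136 bp in arrested cells, where 157135 peaks or 39.1% had exactly this length, and 54 bp in proliferating cells, where 6 peaks had it. The longest peak measured 5989 bp in arrested and 4654 bp in proliferating cells. The median gap to the next peak was 3.93 kb in the arrested and 20.7 kb in the proliferating list, and 27.9% and 7.00% of the peaks lay within 1 kb of another peak of their own list. The excess in arrested cells was larger among longer peaks, with 3508 arrested and 28 proliferating peaks of at least 500 bp, a ratio of 125. At peaks of at least 200 bp the number ratio was 27.7. The depth of the libraries and the settings of the peak caller are not known, so their part in the size of the lists cannot be told apart from that of the growth state.

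Of the proliferating peaks, 4794 or 6.26% were kept in the arrested list (Wilson 95% interval 6.09 to 6.44), and 71754 were proliferation-only. Of the arrested peaks, 4783 or 1.19% were kept (1.16 to 1.22), and 396882 were arrest-only. These shares are the background for every count of kept peaks below. These intervals hold counting error alone, with peaks treated as independent although neighbours are not. To see how much of the overlap the mere density of the lists gives, each peak's window was moved along its chromosome by a fixed distance to either side and set against the same list. Moved by 5 kb, 5.76% of the proliferating windows met an arrested peak, and moved by 50 kb, 5.59% did. The kept share at the peaks themselves was thus 1.09 times that 5 kb away and 1.12 times that 50 kb away, an excess of 0.500 percentage points or 383 peaks over the 5 kb windows. For the arrested list the windows met a proliferating peak in 1.10% of cases at 5 kb and 1.06% at 50 kb, and the kept share was 1.09 and 1.12 times these. Most kept peaks were therefore matched in number by windows away from any peak's own position. The excess fell off within a short distance: proliferating windows moved by 0.2 kb met an arrested peak in 6.07% of cases, by 0.5 kb in 5.87% and by 1 kb in 5.80%. On 17 of the 19 chromosomes the kept share was above that of the 5 kb windows. The exceptions were chromosome 11, at 5.94% against 6.12%, and chromosome 17, at 6.01% against 6.05%. The Wilson interval of the kept share lay above the windows' share on chromosomes 2, 6, 14, 15 and 18 only, and held it on the others.

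**Figure D1:**
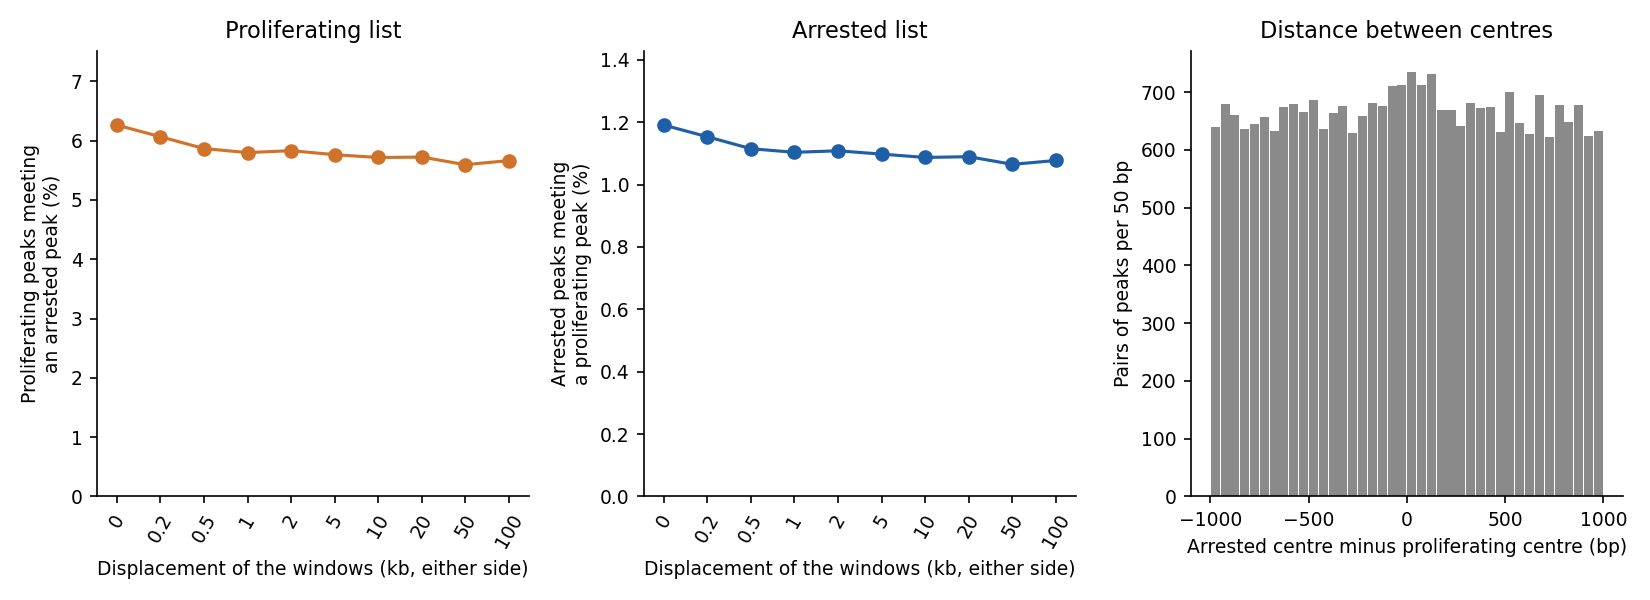
The left and middle panels plot the share of proliferating and of arrested pRb peaks of WT cells that meet a peak of the other list (%), at the peaks themselves (0 kb) and for windows of the same length moved by 0.2 to 100 kb to either side; the distance axis is a list of values, not to scale. The right panel plots pairs of peaks per 50 bp of distance between their centres, and both views show a small rise at 0 above a level of 5.59% to 5.87% (proliferating) from 0.5 kb outwards.

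The kept pairs overlapped by any amount rather than peak on peak. There were 4804 pairs of overlapping peaks, sharing a median of 85 bp with quartiles of 44 and 124 bp. The shared part was a median of 58.6% of the proliferating peak and 40.3% of the arrested peak, and in 807 pairs (16.8%) it held the whole proliferating peak. Counting every arrested centre within 1 kb of a proliferating centre, the 4 intervals of 50 bp nearest to 0 held 710 to 735 pairs, with a mean of 718. The 20 intervals from 500 to 1000 bp held 622 to 700 pairs, with a mean of 656. The intervals between 100 and 500 bp held 630 to 732 pairs. The highest of these, from 100 to 150 bp, was within the range of the 4 nearest to 0. At the edge of the rule, 279 pairs shared 1 to 10 bp, while 275 proliferation-only peaks missed an arrested peak by a gap of 0 to 9 bp. Nearly all matches were 1 to 1: 4784 kept proliferating peaks met 1 arrested peak and 10 met more, and 4762 kept arrested peaks met 1 proliferating peak and 21 met more. Under stricter rules the kept share fell with the rule and so did the share of moved windows. With the peak's midpoint inside a peak of the other list, 2732 proliferating peaks (3.57%) were kept against 3.20% at 5 kb, and 2109 arrested peaks (0.525%) against 0.481%. With a reciprocal overlap of 50%, 1671 peaks were kept, 2.18% of the proliferating and 0.416% of the arrested list, against 1.96% and 0.373% of the windows.

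Kept peaks were slightly longer than the others under the rule of 1 shared bp. In the arrested list they were not under a reciprocal rule, which leaves out long arrested peaks. In the arrested list the median length was 153 bp for kept peaks, with an upper quartile of 290.5 bp, and 145 bp for arrest-only peaks, with an upper quartile of 198 bp. In the proliferating list the medians were 150 and 148 bp and the upper quartiles 161 and 159 bp. A longer peak meets another peak more often whatever it marks, and with the midpoint rule, which does not depend on a peak's own length, the arrested medians were 147 and 145 bp. With a reciprocal overlap of 50% they were 142 bp for kept and 145 bp for the other arrested peaks, while in the proliferating list they were 152 and 148 bp. That rule cannot keep an arrested peak much longer than its proliferating partner, so nothing is read from the reversed direction in the arrested list. The kept share rose with length in both lists. Of 22724 proliferating peaks under 136 bp, 5.69% were kept against 5.07% of their 5 kb windows. Of 50195 peaks of 136 to under 200 bp, 6.33% were kept against 5.95%. These short peaks made up most of the list and, with 1292 and 3176 peaks, most of the 4794 kept peaks.

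Among the few long peaks of either list the kept share reached several times that of the list. Of 118 proliferating peaks of 300 to under 500 bp, 25 or 21.2% were kept (14.8 to 29.4), against 13.6% of the moved windows. Of 21 peaks of 500 to under 1000 bp, 8 were kept, and of 7 peaks of 1000 bp or more, 4 were kept. The moved windows of these classes met an arrested peak in 26.2% and 35.7% of cases, so the surroundings of the long peaks were rich in arrested peaks too. The midpoint rule separated the peaks from their surroundings more clearly: 17 of 118 midpoints (14.4%, interval 9.19 to 21.9) lay in an arrested peak in the class of 300 to under 500 bp, against 5.51% of midpoints moved 5 kb. In the class of 500 to under 1000 bp 7 of 21 did (33.3%, 17.2 to 54.6), against 7.14%. In the arrested list 133 of 3468 peaks of 500 to under 1000 bp were kept, 3.84% (3.25 to 4.53) against 2.45% of the windows, and 7 of 40 peaks of 1000 bp or more. Without the 1% of bins of 100 kb that held the most peaks over all 10 lists, 109 of 146 proliferating peaks of at least 300 bp were left, of which 25 were kept, against 37 of the 146.

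**Figure D2:**
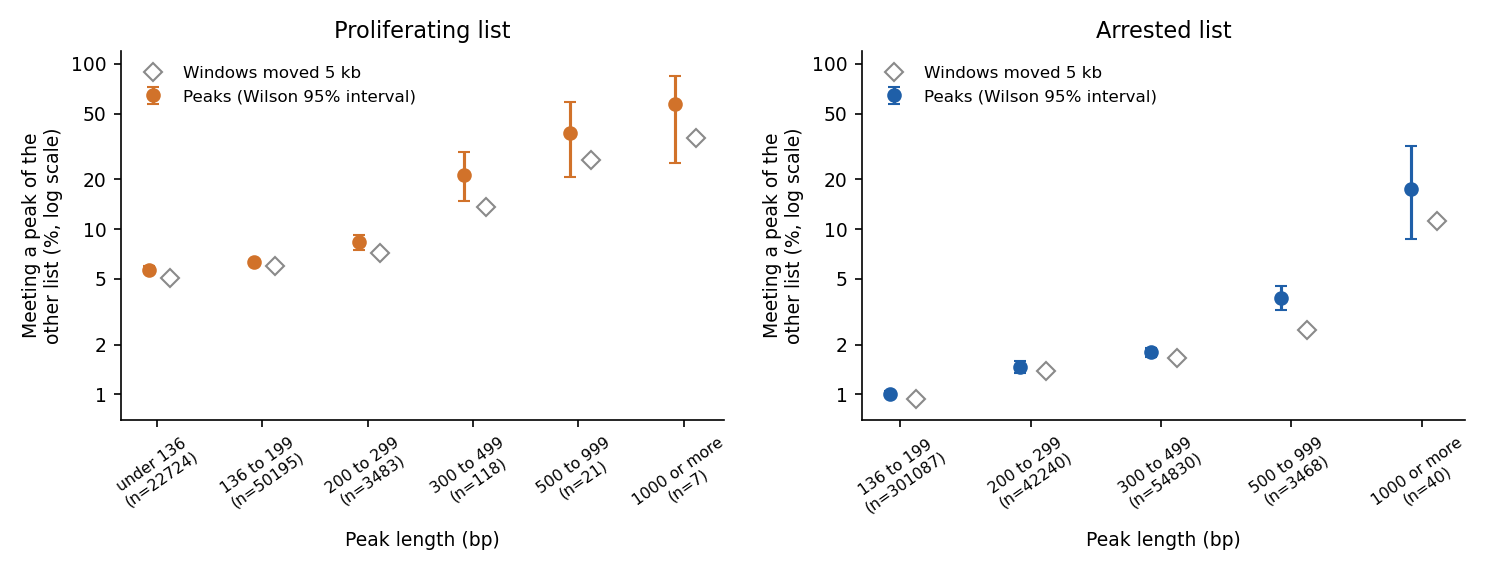
Share of peaks that meet a peak of the other list (%, log scale) by peak length (bp), for proliferating (left) and arrested (right) pRb peaks of WT cells; filled points are the peaks with Wilson 95% intervals and open diamonds are windows of the same length moved by 5 kb. Both rise with length, from 5.69% to 57.1% for proliferating and from 1.01% to 17.5% for arrested peaks, and the number of peaks falls to 7 and 40 in the longest class.

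Peaks were ranked within each list by the score in column 5, whose unit is not stated, and kept peaks stood near the middle of that order. In what follows a rank percentile of 100 is the highest score of a list, and scores are not compared between lists. Kept proliferating peaks had a median rank percentile of 49.2, with quartiles of 24.5 and 75.0, and proliferation-only peaks one of 50.1 with the same quartiles. Kept arrested peaks had a median of 44.8, with quartiles of 18.3 and 70.2, against 50.1 for arrest-only peaks, with quartiles of 25.4 and 75.4. With a reciprocal overlap of 50% the median of kept arrested peaks was 56.0, on the other side of the middle, and by midpoints it was 49.7. The reciprocal rule leaves out arrested peaks much longer than their partner. In the shortest class of arrested peaks, of 136 bp, the median was 56.0 for kept and arrest-only peaks alike. Scores were tied in many peaks: 57404 arrested peaks, 14.3% of the list, had the same score of 86.41. Over each whole list score fell with length, with Spearman's rho of -0.37 over the 401665 arrested and -0.37 over the 76548 proliferating peaks, given as a description. The relation was not steady: among proliferating peaks the median percentile of the peaks not kept was 74.7 up to 127 bp, 16.6 from 153 to 162 bp and 62.2 from 162 bp. The lowest 10% of the arrested list by score had a median length of 329 bp, against 143 bp in the highest 10%. Among peaks of like length kept and arrest-only peaks ranked close together. When the arrested list was cut into 5 classes of equal size by length, the median percentile in the longest class, of 248 bp or more, was 12.4 for kept and 12.7 for arrest-only peaks. In the class of 153 to 248 bp it was 46.8 for both, and in that of 137 to 153 bp 70.2 for kept and 73.7 for arrest-only peaks.

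The kept share did not rise steadily with the score. With each list cut into 10 classes by score, it lay between 5.91% and 6.73% in the proliferating list. In the arrested list it lay between 0.914% and 1.84% and was highest in the class of lowest score, where the peaks were longest. In 5 of the 10 classes of either list the interval of the kept share lay above the share of moved windows, and in the other 5 it held it. Of the 100 proliferating peaks of highest score 4 were kept, a share of 4.0% (1.57 to 9.84) that equals that of their moved windows, and of the 1000 highest 56 were kept, 5.60% against 5.35%. Among the arrested peaks of highest score the kept share was above that of the moved windows, but on few kept peaks and in sets nested in each other. Of the 100 highest 4 were kept, 4.0% (1.57 to 9.84) against 0.5% of their windows, with an interval above the list's share of 1.19%. Of the 500 highest 9 were kept, 1.8% (0.95 to 3.39) against 0.5%, and of the 1000 highest 16, 1.60% (0.987 to 2.58) against 0.55%. Of the 5000 highest 58 were kept, 1.16% (0.898 to 1.50) against 0.85%. In the highest 10% of the arrested list the share was 1.07% (0.974 to 1.18) against 0.982%, which the interval holds. Over the 4804 kept pairs the rank percentiles of the 2 partners had a Spearman's rho of -0.01 and their lengths one of 0.0016, as descriptions across pairs. Among the 460 pairs whose proliferating peak was in the highest 10% by score, 9.57% had an arrested partner in the highest 10% of its own list, against 9.01% of all pairs.

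**Figure D3:**
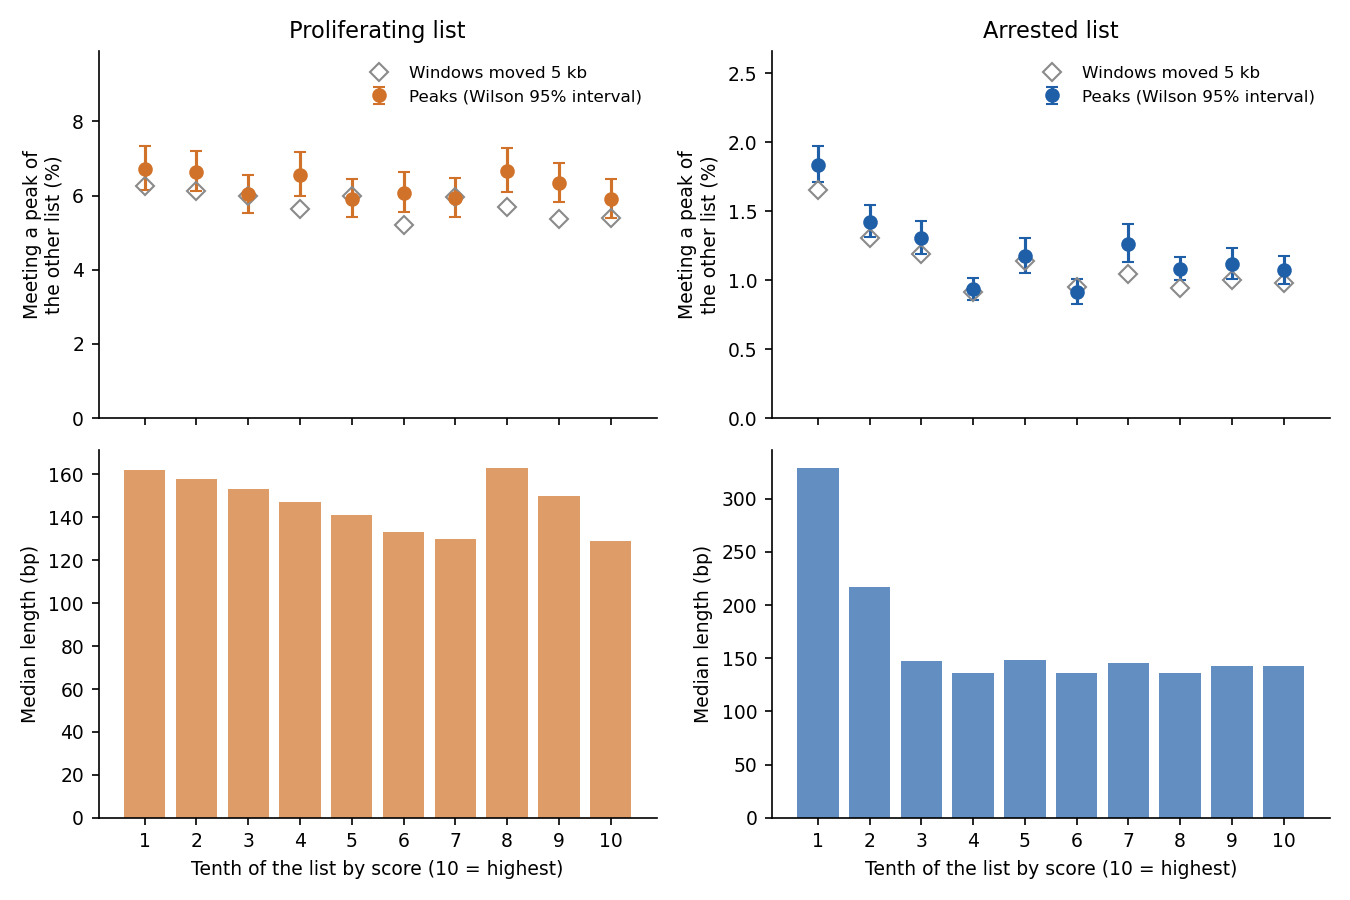
Upper panels: share of peaks that meet a peak of the other list (%) in 10 classes of the list by score, 10 being the highest, with Wilson 95% intervals, and open diamonds for windows moved by 5 kb; lower panels: median peak length (bp) in the same classes. The kept share follows the moved windows, between 5.91% and 6.73% in the proliferating list and up to 1.84% in the lowest class of the arrested list, where the median length is 329 bp.

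Positions are given in the mm9 build of the mouse genome, counted from 1, and no gene is assigned to them because no mm9 annotation was used. By score the leading kept peak lay on chromosome 1 at 24618371-24623024. It measured 4654 bp, was number 2 of the proliferating list with a score of 180, and lay inside an arrested peak of 4813 bp, number 1 of its list. The arrested SS pRb list had a peak there too, and the other 7 lists had none. The next kept peaks by score had partners far down the arrested list. The peak on chromosome 9 at 56166414-56166624, 211 bp long and number 34 of the proliferating list, met an arrested peak of 567 bp at number 227028. On chromosome 1 at 84961302-84961745, a peak of 444 bp and number 84 met an arrested peak of 264 bp at number 401314 of 401665. The last 2 of the 5, of 55 bp on chromosome 1 at 43471554-43471608 and of 73 bp on chromosome 17 at 81684414-81684486, met arrested peaks at numbers 220262 and 157394. High score in both states was thus seen at the first of these 5 places alone.

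The peaks of highest score among those called in 1 state alone were for the most part short. By score the leading arrest-only peak lay on chromosome 6 at 103598728-103599371, with 644 bp and a score of 1014.74, the second highest of its list. There the arrested SS pRb list, both Ezh2 lists and the arrested WT H3K27me3 list also had a peak. The next 3 arrest-only peaks tied at a score of 897.93 and measured 155 or 156 bp. They lay on chromosome 11 at 24109216-24109371, chromosome 15 at 9395685-9395840 and chromosome 16 at 15636258-15636412, and the first and last had no peak in any of the other 8 lists. The leading proliferation-only peak, on chromosome 14 at 58626825-58626882, measured 58 bp and had the highest score of the proliferating list, 339. The second, on chromosome 15 at 72231259-72231414, measured 156 bp with a score of 152.57. The next 3, of 70 to 98 bp, lay on chromosomes 5 and 4 with scores of 120.74, 108.2 and 95.94. Each of these 5 lay in 1 or 2 of the other 8 lists.

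The longest peaks gathered in a few places. Of the 28 proliferating peaks of at least 500 bp, 22 lay in 7 blocks of 1 Mb that held at least 2 of them, and 12 were kept. On chromosome 5, between 15007556 and 15196684, there were 5 such peaks, of which 4 were kept. One of them, at 15054016-15054949, was a peak of 934 bp that met an arrested peak of 562 bp. On chromosome 1, between 85179624 and 85294293, there were 5, of which 2 were kept. The longest of these, at 85258408-85260282, measured 1875 bp and met an arrested peak of 1662 bp at 85258753-85260414, and 6 of the other 8 lists had a peak there. On chromosome 8, between 19726333 and 19873276, 1 of 4 long peaks was kept, the peak of 2008 bp at 19729816-19731823, which met an arrested peak of 310 bp. On chromosome 2 at 22443066-22443882 and 22444704-22445718, 2 proliferating peaks lay in 1 arrested peak of 3056 bp, number 295 of its list. Of the other lists only the arrested SS pRb list had a peak at the second of these. On chromosome 11, between 3094467 and 3098646, near the centromere end of the sequence, 2 proliferation-only peaks of 2740 and 1360 bp were the longest of their class. They lay beside 6 arrest-only peaks of at least 1000 bp between 3026976 and 3100048, with no overlap between the states.

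Long arrested peaks gathered in a few blocks too, some of them the same. Of the 40 arrested peaks of 1000 bp or more, 31 lay in 8 blocks of 1 Mb with at least 2 of them, and 7 were kept. The block on chromosome 1 from 85161635 to 85283451 held 7, of which 2 were kept. The neighbouring blocks on chromosome 5, from 14933570 to 14963700 and from 15120801 to 15213525, held 4 each, of which 2 and 1 were kept. The blocks on chromosome 7 from 67002836 to 67040186, with 3, and on chromosome 8 from 56198464 to 56207123, with 2, held no proliferating peak of at least 500 bp, and none of their long arrested peaks was kept. The longest arrest-only peak, of 5989 bp on chromosome 17 at 39979867-39985855, had a score of 20.28, among the lowest of its list, and 6 of the other 8 lists had a peak there, none of them a pRb list. The long peaks recurred across antibodies: over the other 8 lists the 28 proliferating peaks met a median of 4 and the 40 arrested peaks a median of 5, with none in all 8. A long peak meets more peaks of any list, so these medians are not set against those of short peaks. These blocks were described after their values were seen.

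Along the genome both lists were spread evenly. Arrested peaks numbered between 153 per Mb on chromosome 7 and 173 per Mb on chromosome 11, and proliferating peaks between 29.2 per Mb on chromosome 7 and 32.5 per Mb on chromosome 13. The ratio of arrested to proliferating peaks ranged over chromosomes from 5.03 on chromosome 13 to 5.41 on chromosome 6. The share of proliferating peaks kept ranged from 5.82% (5.13 to 6.59) on chromosome 9 to 6.95% (6.07 to 7.95) on chromosome 18, and the interval held the autosomal share of 6.26% on each of the 19 chromosomes. For the arrested list the interval held the share of 1.19% on each as well. Mouse chromosomes have their centromere at the end where the coordinates begin, and the first peak of any list lay near 3 Mb. When each chromosome was cut from its first to its last peak into 10 equal stretches, the arrest-only class had 9.59% of its peaks in the first stretch and 10.4% in each of the last 2. The proliferation-only class ranged from 9.58% to 10.5%. Kept peaks of the proliferating list were fewest in the seventh stretch, at 9.28% (8.49 to 10.1), and most frequent in the last, at 11.3% (10.4 to 12.2). The last stretch held 10.2% of all proliferating and 10.4% of all arrested peaks. Moved windows were not set beside the shares by stretch. In the first 200 kb the density of proliferating peaks was 38.7 per Mb against 31.7 over the whole, while that of arrested peaks was 152 per Mb against 166. Kept proliferating peaks there numbered 14 of 147, or 3.68 per Mb against 1.98 over the whole. In the first 1 Mb they numbered 37, or 1.95 per Mb.

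**Figure D4:**
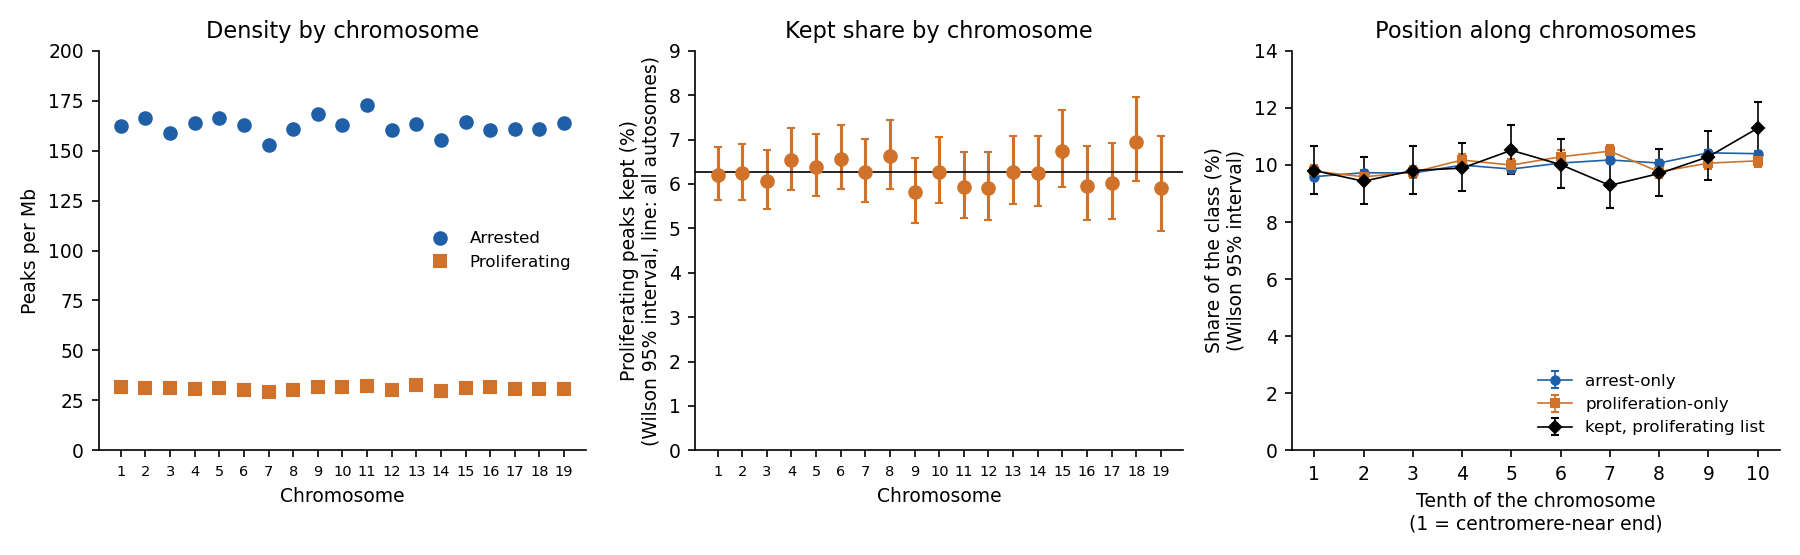
Left: arrested (circles) and proliferating (squares) pRb peaks of WT cells per Mb on chromosomes 1 to 19. Middle: share of proliferating peaks kept (%) by chromosome with Wilson 95% intervals, all of which hold the autosomal share of 6.26% (line). Right: share of each class (%) in 10 equal stretches of the chromosomes from the centromere-near end, with Wilson 95% intervals, which for kept peaks runs from 9.28% in the seventh to 11.3% in the last stretch.

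Over 24017 autosomal bins of 100 kb a bin held a median of 17 arrested and 3 proliferating peaks, and 90% of the bins held 10 to 24 and 0 to 7. Spearman's rho between the 2 lists was 0.09 over these bins, which are not independent replicates and share mappable length, and 0.32 over bins of 1 Mb. Kept proliferating peaks lay in 4263 bins (17.7%), and 13 bins with 4 or more held 63 of them, 1.31%. The bin with the most kept peaks was on chromosome 5 at 14900001-15000000, with 39 arrested peaks covering 21.1 kb, 22 proliferating peaks covering 5.48 kb and 8 of the latter kept. It held the most proliferating peaks of any bin and so also led the bins whose share of the proliferating list was above their share of the arrested list. On chromosome 1 at 90100001-90200000 there were 57 arrested peaks, the most of any bin, and 10 proliferating peaks, of which 7 were kept. On chromosome 4 at 145100001-145200000, 6 of 15 proliferating peaks were kept, among 28 arrested peaks. The other 2 leading bins, on chromosomes 8 and 4, had 5 each. These 5 bins held 40 to 77 peaks of the Ezh2 WT list and 62 to 80 of the Ezh2 SS list. Their H3K27me3 counts varied, with 26 to 39 peaks of the arrested WT list, 1 to 27 of the arrested SS list, 2 to 29 of the proliferating WT list and 4 to 31 of the proliferating SS list. The Ezh2 and H3K27me3 counts of all bins are not set beside these. The 5 bins were picked for their kept peaks, so no enrichment is read from their counts.

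The 5 bins that leaned most to the proliferating list held 13 to 22 proliferating peaks each, of which 0 to 8 were kept. Over the autosomes 6.26% of proliferating peaks were kept, but these bins were picked by their counts, so no share is read from them. First was the bin of chromosome 5 with 8 kept. Second among those that leaned to the proliferating list was the bin on chromosome 14 at 43900001-44000000, with 20 proliferating and 30 arrested peaks, 4 of the former kept. On chromosome 3 at 92000001-92100000 there were 17 proliferating and 22 arrested peaks and none kept. Of the 5 bins that leaned most to the arrested list 4 held no proliferating peak, so none could be kept there. They were led by the bin on chromosome 5 at 118900001-119000000, with 31 arrested peaks covering 5.57 kb. The other bin held 3 proliferating peaks, of which 1 was kept. Of all bins 1267 held no proliferating and 15 no arrested peak.

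The classes were then followed into the 8 lists that took no part in defining them, by the midpoint of each peak, beside midpoints moved by 5 kb. A peak's own length thus plays no part in this step, but the classes rest on the rule of 1 shared bp, which favours longer peaks. Folds below are the share of midpoints in a peak over the share of moved midpoints, with intervals that treat the latter as fixed. In the arrested SS pRb list 370 of the 4794 kept proliferating midpoints lay in a peak, 7.72% against 6.04% of moved midpoints, a fold of 1.28 (1.16 to 1.41). By the midpoints of the kept arrested peaks the fold there was 1.25 (1.13 to 1.38). For proliferation-only peaks the share was 6.31% and the fold 1.09 (1.06 to 1.12), and for arrest-only peaks 6.13% and 1.07 (1.06 to 1.08). In the proliferating SS pRb list 49 kept proliferating midpoints lay in a peak, 1.02% and a fold of 1.29 (0.977 to 1.70). Of the 4783 kept arrested midpoints 35 lay in a peak of that list, 0.732% against 0.868% when moved. This was a fold of 0.843 (0.607 to 1.17), so the direction depended on which list gave the midpoint. There proliferation-only peaks had 0.938% and a fold of 1.39 (1.29 to 1.50), and arrest-only peaks 0.746% and a fold of 1.13 (1.09 to 1.17). Proliferation-only and arrest-only peaks thus both had a higher fold in the proliferating than in the arrested SS list, although few of either lay in a peak of the former. The difference was not tested.

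Kept proliferating peaks also lay in the peaks of 5 of the 6 Ezh2 and H3K27me3 lists somewhat more often than their surroundings 5 kb away. The exception was the arrested WT H3K27me3 list, with 8.16% against 7.70% and a fold of 1.06 (0.963 to 1.16). In the Ezh2 WT list the fold was 1.34 (1.18 to 1.52) for kept proliferating peaks, 1.17 (1.12 to 1.21) for proliferation-only and 1.12 (1.10 to 1.14) for arrest-only peaks. For kept arrested peaks it was 1.14 (1.001 to 1.31) there. In the 2 proliferating H3K27me3 lists, WT and SS, the folds for kept proliferating peaks were 1.13 (1.04 to 1.22) and 1.20 (1.12 to 1.28), against 1.05 to 1.06 for the peaks of 1 state. Of the kept midpoints 11.8% and 14.9% lay in these 2 lists, against 10.4% and 12.4% when moved by 5 kb. Moved by 50 kb, 11.3% and 13.8% did, so the excess was smaller, and the WT interval of 10.9 to 12.7 holds the moved share. In the arrested SS H3K27me3 list the share was 7.97% (7.23 to 8.77), against 6.78% at 5 kb and 7.75% at 50 kb, which the interval holds. In the Ezh2 lists the 50 kb shares, 3.61% for WT and 4.79% for SS, lay below the intervals of 4.27 to 5.48 and 6.30 to 7.74. Over the 8 lists the folds of kept proliferating peaks ran from 1.06 to 1.34, with the interval above 1 in 6 lists. Those of proliferation-only peaks ran from 1.04 to 1.39 and those of arrest-only peaks from 1.05 to 1.13, above 1 in all 8. For the kept peaks of the arrested list the range was 0.843, in the proliferating SS pRb list, to 1.25, in the arrested SS pRb list, with the interval above 1 in 7. A kept peak lies by definition in a place that 2 lists call, and the difference between the classes was not tested.

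**Figure D5:**
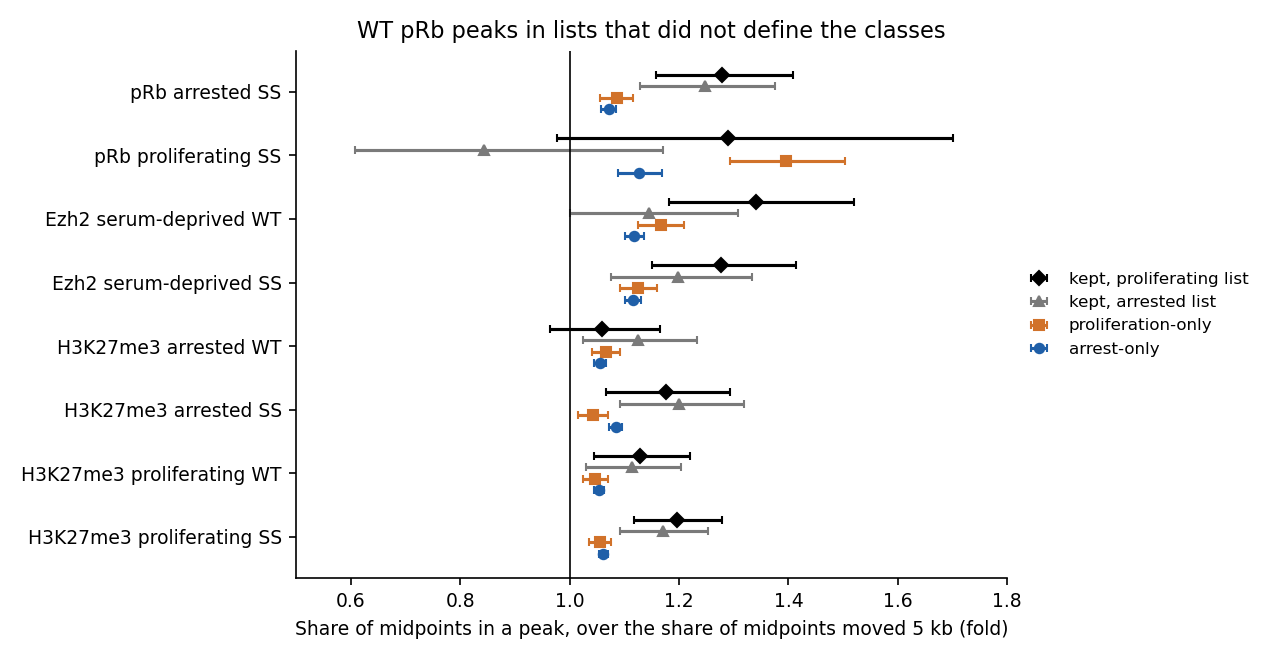
Share of peak midpoints that lie in a peak of each of 8 other lists, divided by the share of midpoints moved by 5 kb (fold; line at 1), for kept peaks of both lists, proliferation-only and arrest-only pRb peaks of WT cells; bars are Wilson 95% intervals with the moved share taken as fixed. The intervals of the 2 kept classes are wide, with folds from 0.843 to 1.34, and proliferation-only peaks reach 1.39 in the proliferating SS pRb list.

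Folds between the 2 states were also taken over whole lists, with those for other antibodies given alongside. Over whole lists, midpoints of proliferating WT pRb peaks lay in arrested WT pRb peaks at a fold of 1.12 (1.08 to 1.16). Against the 6 Ezh2 and H3K27me3 lists their folds ran from 1.05 to 1.18. Against the proliferating SS pRb list the fold was 1.39 (1.29 to 1.49). For midpoints of arrested WT peaks the fold was 1.09 (1.05 to 1.14) in the proliferating WT pRb list. In the arrested SS pRb list it was 1.07 (1.06 to 1.09), and in the proliferating SS pRb list 1.12 (1.08 to 1.16). In the Ezh2 and H3K27me3 lists it was 1.05 to 1.12. The lists differ in peak width, which the shares by midpoint and by any shared base reflect. For arrest-only peaks these were 13.7% and 15.1% in the proliferating SS H3K27me3 list, and 5.73% and 15.2% in the Ezh2 SS list. A move of 5 kb can stay within a wide or clustered region, so folds are not ranked between antibodies. Few kept places recurred widely. Of the 4794 kept proliferating peaks 2297 (47.9%) met no peak of the other 8 lists, 1399 met 1 and 583 met 2, counting any shared base. Among proliferation-only peaks 52.4% met none. In both SS pRb lists, and so in all 4 pRb lists, there were 13 kept proliferating peaks (0.271%), with a median length of 161 bp, against 146 proliferation-only peaks in both SS lists (0.203%). The 2 longest of the 13 lay on chromosome 5 at 15051264-15051974 and 14994399-14994827. The kept peak on chromosome 11 at 43341252-43341413, of 162 bp, was in 7 of the other 8 lists, both SS pRb lists among them. With it, the peak of 167 bp on chromosome 9 at 3258816-3258982 was the only kept proliferating peak in 7 of these lists, and none was in 8.

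The same comparison in SS cells gave values of the same order, and the difference between genotypes was not tested. There the arrested list held 617903 and the proliferating list 104728 autosomal peaks, a ratio of 5.90, and covered 8.81 times the length. Of the proliferating SS peaks 10.2% were kept (10.0 to 10.4), against 9.42% of windows moved by 5 kb, a fold of 1.08, and of the arrested SS peaks 1.72% against 1.59%. By midpoints the fold for proliferating peaks was 1.10 in SS and 1.12 in WT cells.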

How the data were processed

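The authors called 1 peak list per library. The submitters' processing notes name mm9 as the build, and bedtools, HOMER, MACS2 and Bowtie2 as tools. For versions, settings and controls, the answer is not given in the sources used here. The deposited lists have no header. The 2 WT pRb lists hold chromosome, start, end, name and a score per peak, in column 5, whose unit the authors do not state. The score was used to rank peaks within a list and, in 1 alternative setting, as a common cutoff. Of the other 8 lists only positions were used. Depth is unknown. Input libraries were not analysed here.

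Peaks on chromosomes 1 to 19 were compared by a shared length of at least 1 bp. Windows of the same length, or midpoints, moved by 5 or 50 kb to either side gave the surroundings, leaving out windows before 3 Mb or past the last peak. Bins were 100 kb wide. Features were named by fixed rules: in each class the 5 peaks of highest score and the 5 longest, the 5 bins with the most kept peaks, the 5 leaning most to either list, and the extreme chromosomes. Classes, rules and members were chosen with earlier results of these data known. Overlap steps were tested on simulated lists. The scripts ran under Python 3.11.15 with scipy 1.17.1, pandas 2.3.3, numpy 2.4.6 and, for plots, matplotlib 3.10.9. No sequence is printed because no mm9 genome was used.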

Additional observations from a re-analysis of the deposited data

Results flagged for a closer look

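The X chromosome, which the comparison above leaves out, differed more between the states than the autosomes. The arrested WT list held 22883 X peaks and the proliferating WT list 1199, a ratio of 19.1 against 5.25 on the autosomes. Per Mb, X had 0.845 times the autosomal density in the arrested and 0.232 times in the proliferating list. The Y chromosome had 40 and 62 peaks. In SS cells the X ratio was 19.2 against 5.90 on the autosomes, with 202 and 64 Y peaks. Per Mb, X there had 0.775 times the autosomal density in the arrested and 0.238 times in the proliferating list. These values are given because they lie outside the main comparison. Each state had 1 library per genotype, and depth, caller settings and whether the cultures came from the same embryos are not known. The part of these in the X values cannot be told apart from that of the growth state.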

How the results depend on the processing

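The number ratio of 5.25 and the length ratio of 6.72 stayed within 1.5 times their value with peaks within 1 kb merged, with all chromosomes and without the densest bins. Among peaks of at least 200 bp they were 27.7 and 38.5, among those of at least 500 bp 125 and 69.2, and at a common score of at least 106.26, which left 5 proliferating peaks, 40167 and 6420. The common score sets both lists on 1 scale although its unit is not stated, so nothing is read from its values. With equal list lengths, taking the arrested peaks of highest score, the length ratio was 1.08. The kept share of proliferating peaks was 7.66% with merging, 1.09% with equal list lengths, 2.74% in the higher-scoring 50% of each list, 20.0% (1 of 5) at the common score, 3.72% at 200 bp, 32.1% (9 of 28) at 500 bp, 2.18% with reciprocal overlap, 3.57% by midpoints and 12.9% within 200 bp. For arrested peaks these were 1.66%, 1.09%, 0.520%, 0.00050%, 0.135%, 0.257%, 0.416%, 0.525% and 2.50%, and 1.15% with all chromosomes. Fewer or shorter peaks in the other list lower these shares by construction. Over windows moved 5 kb the proliferating fold stayed between 1.06 and 1.30, apart from 3.60 at 500 bp and no value at the common score, where no window met a peak. The median length of kept arrested peaks, 153 bp, was 142 bp with reciprocal overlap, below the 145 bp of the others. This change of direction came under a rule that leaves out arrested peaks much longer than their partner. The median was 147 bp by midpoints, 148 bp within 200 bp and 144 bp with equal list lengths, where that of arrest-only peaks was 142 bp. That of kept proliferating peaks was 152 bp with reciprocal overlap. The median percentile of kept arrested peaks was 56.0 with reciprocal overlap, above 50, a change of side under the same rule. By midpoints the median percentile was 49.7 and with equal list lengths 49.0, where that of kept proliferating peaks was 51.3. In 5 classes of equal size, from the shortest to the longest peaks, it was 56.0, 56.0, 70.2, 46.8 and 12.4 for arrested and 74.7, 54.6, 35.3, 16.6 and 63.1 for proliferating kept peaks. The rank correlation of the 2 lists over bins was 0.317 at 1 Mb. Of 99 alternative values 53 stayed within the interval or the factor of 1.5 of the value reported and 46 moved, and for these the cause was not tested beyond what is said here. No paired analysis was possible because each group had 1 library and no test was made.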
